A study of Mus musculus with 10 samples.

Results

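The genes described here are 42 genes of the intestinal stem cell niche and of Wnt signalling, listed under 44 symbols because Troy is a synonym of Tnfrsf19 and Ctgf of Ccn2. They were listed by name, with earlier results of these data known, and 38 of them matched a named probe set among 19505 measured genes. Olfm4, Ephb2, Rnf43 and Ly6a had no named probe set and are not analysed here. All 10 arrays are of complete colon from wild-type C57BL/6 mice in which oral dextran sulfate sodium (DSS, 3%), which injures the colonic epithelium, and an intraperitoneal anti-PD1 antibody, which blocks an immune checkpoint, had induced colitis. The 5 ECP arrays come from mice that also received donor cells treated by extracorporeal photopheresis (ECP, exposure of leukocytes to a photosensitiser and ultraviolet light), and the 5 control arrays from mice with colitis and no such cells. Neither group is free of colitis, and the labels give no age, sex or dose of cells and do not state whether arrays are from different mice, so the tests reflect the spread between these samples, which may be technical. The comparison asks what the transfer changed in the colitic colon.

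Colonic crypts are renewed by stem cells at their base. Wnt ligands bind Frizzled and LRP receptors and stabilise beta-catenin, R-spondins bound to LGR receptors keep those receptors on the cell surface by restraining the ubiquitin ligases RNF43 and ZNRF3, and target genes such as Axin2, Nkd1 and Notum feed back on the pathway. Fibroblasts and muscle around the crypt base secrete much of this signal together with antagonists of BMP, a family of ligands that promotes differentiation. After injury, crypt cells can take on a fetal-like repair program marked by genes such as Ly6a, Clu and Anxa1 and by targets of the YAP and TEAD factors such as Ccn1 and Ccn2.

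Values are deposited log2 intensities, summarised per probe set by RMA, a method that also brings all arrays to a common distribution. A difference is ECP minus control on that log2 scale, its standard error (SE) and p come from limma fitted over all genes, and the threshold is a Benjamini-Hochberg adjusted p of 0.05 over all genes. Levels of different genes were not compared, because each probe set has its own response. The labelled tissue was checked on marker lists by each marker's percentile of mean intensity among all genes, a rough guide since probe sets respond differently. The 5 measured colon markers lay between 56.8 (Hoxb13) and 100 (Muc2), with Car1, Slc26a3 and Aqp8 above 97. The 6 small intestinal markers lay between 11.8 (Defa24) and 82.6 (Apob). Hoxb13 was at 8.51, 7.55, 7.04, 6.56 and 5.96 in ECP replicates 1 to 5 and at 7.39 to 8.41 in the controls. Its difference was -0.75 (SE 0.40, limma adjusted p = 0.998). Aqp8 was at 8.44 in control replicate 4 and at 10.93 to 11.58 in the other controls. The cause of either pattern was not tested. In bulk tissue, fewer cells of a type and less RNA per cell cannot be told apart.

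Promoter sequences of 4 members are shown because the results turn on them or because they carry the letters bound by the pathway's own factors. Each runs 5′ to 3′ on the gene's strand from 250 bases before the start of the gene to 50 bases after it, from RefSeq on build GRCm38.p6. Cdca7 (chr2:72475969-72476268, plus strand) had the smallest p among the members, Grem1 (chr2:113758599-113758898, minus strand) is a stromal BMP antagonist, Ccn1 (chr3:145649936-145650235, minus strand) is a YAP target, and Tnfrsf19 (chr14:61037938-61038237, minus strand) held a TCF/LEF match. Capitals mark matches to CTTTGAT or its reverse complement ATCAAAG (TCF/LEF, the factors that beta-catenin binds), GGAATG or CATTCC (TEAD), and GGGCGG or CCGCCC (the GC box bound by the Sp1 family), in either strand.
Cdca7: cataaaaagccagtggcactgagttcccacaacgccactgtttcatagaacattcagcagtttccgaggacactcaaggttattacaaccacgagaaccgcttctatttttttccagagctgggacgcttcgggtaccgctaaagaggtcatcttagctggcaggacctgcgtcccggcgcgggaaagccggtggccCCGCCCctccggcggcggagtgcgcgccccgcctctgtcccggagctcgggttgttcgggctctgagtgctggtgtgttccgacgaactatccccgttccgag
Grem1: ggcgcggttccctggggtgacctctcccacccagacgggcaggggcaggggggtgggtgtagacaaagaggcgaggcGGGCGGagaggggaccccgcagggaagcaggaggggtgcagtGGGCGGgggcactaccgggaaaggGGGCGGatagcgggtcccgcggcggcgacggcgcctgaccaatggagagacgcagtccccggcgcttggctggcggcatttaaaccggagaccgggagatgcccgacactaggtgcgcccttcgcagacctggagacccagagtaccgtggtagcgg
Ccn1: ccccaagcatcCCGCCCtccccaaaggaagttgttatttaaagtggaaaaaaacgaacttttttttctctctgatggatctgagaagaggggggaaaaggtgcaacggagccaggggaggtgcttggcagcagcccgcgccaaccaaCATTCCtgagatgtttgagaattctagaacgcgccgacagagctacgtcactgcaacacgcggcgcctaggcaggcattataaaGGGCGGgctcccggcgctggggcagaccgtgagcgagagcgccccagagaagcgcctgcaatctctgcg
Tnfrsf19: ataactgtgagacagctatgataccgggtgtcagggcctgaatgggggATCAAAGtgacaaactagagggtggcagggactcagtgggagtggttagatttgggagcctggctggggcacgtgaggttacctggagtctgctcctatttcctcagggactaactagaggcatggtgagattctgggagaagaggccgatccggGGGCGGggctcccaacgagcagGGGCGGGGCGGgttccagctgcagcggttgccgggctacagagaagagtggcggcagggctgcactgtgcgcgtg
RefSeq promoters were matched for 22 of the 38 members, in 25 entries. A member was counted when any of its entries matched, while the shares of all promoters count single entries, so these are unlike measures. For Tnfrsf19 only an entry with the TCF/LEF letters was shown. The TCF/LEF letters occurred in 1 of the 22 genes, Tnfrsf19, 202 bases before the start, and in 3.73% of all 32851 promoters of the same length. The TEAD letters occurred in 4 of the 22 genes, Anxa1, Bmi1, Ccn1 and Lgr4, and in 14.7% of all promoters, and in Ccn1 they lay 103 bases before the start. The GC box occurred in 16 of the 22 genes and in 35.7% of all promoters, once in Cdca7 and 3 times in Grem1, and of the 3 copies in Tnfrsf19 the last 2, which start 25 and 20 bases before the start, share a base. Such matches describe these letters in these windows and are not binding sites.

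No member differed between the groups past the threshold. With limma, 0 of 38 members and 0 of 19505 genes (0%) passed it, and the lowest adjusted p among the members was 0.939. At an unadjusted p under 0.05 there were 2 members, Cdca7 and Lgr5, both higher in the ECP arrays, or 5.26% of the members against 5.08% of all genes (2.31% higher and 2.77% lower). That count was 2 higher and 3 lower without control replicate 1 (518 and 557 of all 19505 genes). It was 2 and 2 without control replicate 4 (558 and 690 of all genes) and 2 and 5 without both (563 and 725). It was 0 and 0 without ECP replicate 3 (386 and 486 of all genes) or without ECP replicate 4 (377 and 450). Lgr5 was not under that level in 14 of 25 alternatives, among them the replicate block, median centring and renewed quantile normalisation, and Cdca7 in 6 of 24. In 0 of 38 members did the ECP arrays lie wholly above or below the control arrays, against 1.22% of all genes. Of the members, 23 were higher and 15 lower, with a median difference of 0.065, and of all genes 10393 (53.3%) were higher, with a median of 0.0078. The members' split was not stable. It was 18 higher and 20 lower without control replicate 1, and 19 and 19 with array weights. It was 17 and 21 with the acinar marker level as a covariate and 16 and 22 with the smooth muscle level. Without control replicates 1, 4 and 5 it was 13 and 25. Only control replicate 3 lay within the ECP range of the acinar level, so that covariate nearly separates the groups.

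**Figure D1:**
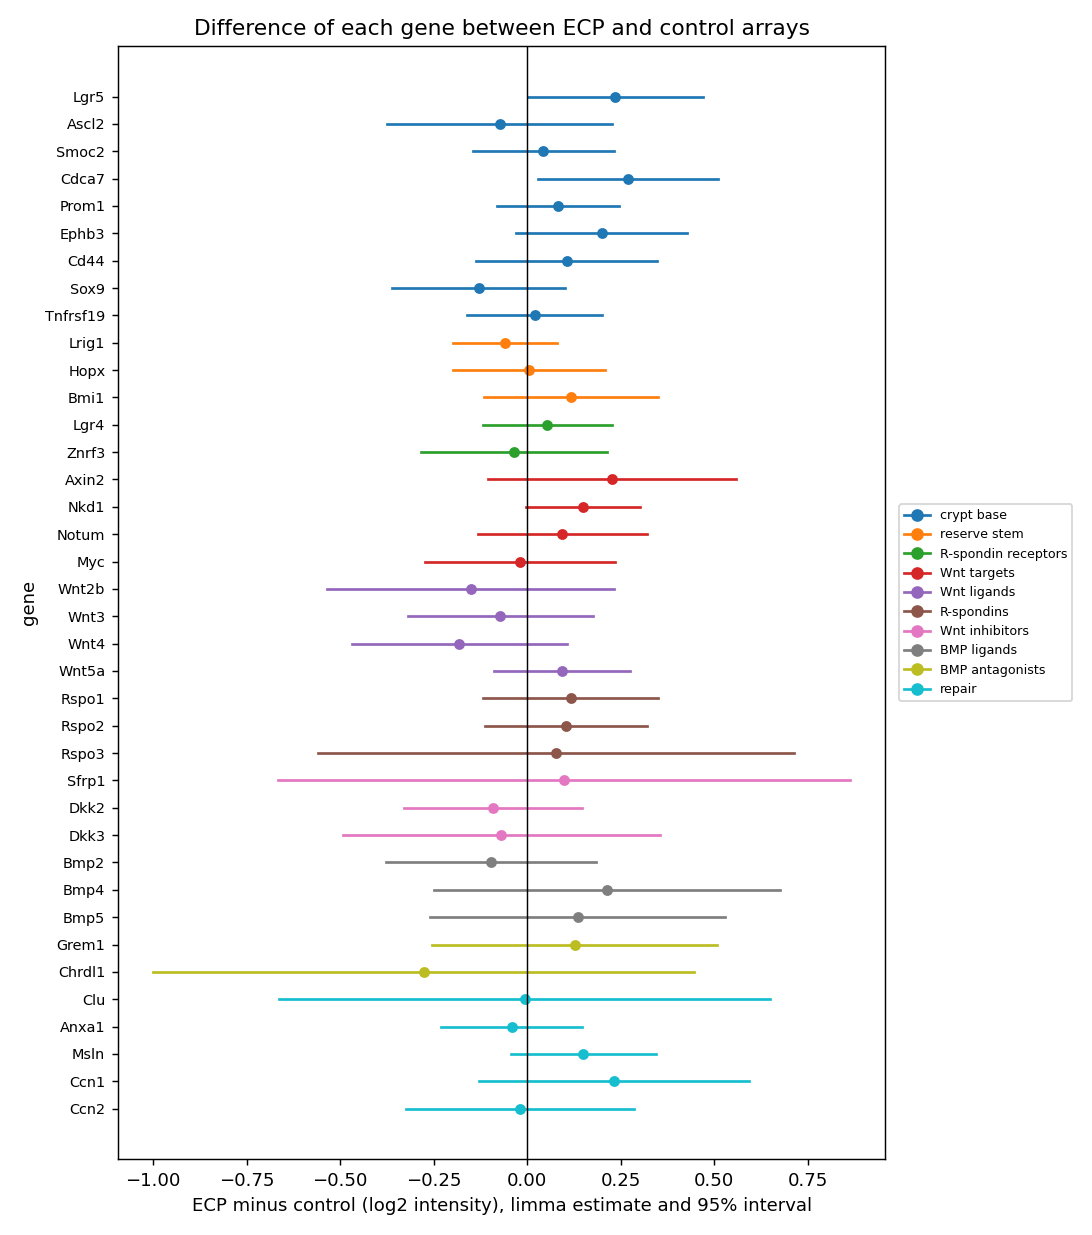
ECP minus control difference (log2 intensity, horizontal axis) of each of the 38 genes, with points for the limma estimate over 5 ECP and 5 control arrays and bars for its 95% interval, coloured by role. Only the intervals of Lgr5 and Cdca7 leave out 0, and the widest intervals belong to secreted factors such as Sfrp1 (-0.67 to 0.86) and Chrdl1 (-1.001 to 0.45).

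Crypt base genes were slightly higher in the ECP arrays in 7 of 9 measured members, with a median difference of 0.08, and in 5 of 9 without ECP replicate 5 or without control replicate 4. Cdca7, a cell division protein gene enriched in crypt stem cells, was at 6.99, 6.75, 6.997, 6.96 and 6.73 in ECP replicates 1 to 5 and at 6.396, 6.63, 6.63, 6.98 and 6.45 in control replicates 1 to 5. Every control array but replicate 4 lay below the lowest ECP array. The difference was 0.27 (SE 0.11, 95% interval 0.03 to 0.51, limma adjusted p = 0.939), or 20.5% on the linear scale. The lowest value with 1 array left out was 0.21 (control replicate 1) and the highest 0.36 (control replicate 4).

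Lgr5, the R-spondin receptor gene that marks cycling crypt stem cells, was at 7.45, 7.71, 7.79, 7.84 and 7.84 in ECP replicates 1 to 5. The control replicates were at 7.68, 7.25, 7.61, 7.31 and 7.61. ECP replicate 1 fell among the controls and the other 4 ECP arrays lay above all of them, with a difference of 0.23 (SE 0.11, interval 0.00076 to 0.47, limma adjusted p = 0.978). Ephb3, a receptor gene that positions cells in the crypt, was at 7.58 ± 0.16 (SD, n = 5) against 7.38 ± 0.19, a difference of 0.20 (SE 0.11, adjusted p = 0.998).

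The other crypt base members differed by at most 0.13 in size. Cd44, an adhesion receptor and Wnt target gene, differed by 0.11 (SE 0.11; 0.03 without control replicate 1), the membrane protein gene Prom1 by 0.08 (SE 0.07; 0.05 without control replicate 2 and 0.13 without ECP replicate 1), the matricellular protein gene Smoc2 by 0.04 (SE 0.09) and the receptor gene Tnfrsf19 by 0.02 (SE 0.08). The signs of Smoc2 and Tnfrsf19 turned without ECP replicate 5 and without control replicate 4, and that of Ascl2 without ECP replicate 4. Ascl2, the transcription factor of crypt stem cells, ran the other way at -0.07 (SE 0.14), as did the transcription factor Sox9 at -0.13 (SE 0.11). Sox9 was highest in control replicate 2 (10.06) and lowest in control replicate 4 (9.42), both outside the range of 9.48 to 9.70 of the ECP arrays, and its difference was -0.05 without the former and -0.21 without the latter.

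Proliferation markers measured on the same arrays were mostly lower in the ECP arrays. The mean level of 11 measured markers was 8.09 to 8.24 in the ECP arrays and 8.41 to 8.72 in the controls. Of the 11, 10 were lower, against 46.7% of all genes. In the same arrays the mean of the 9 crypt base genes was 7.90 to 8.12 and 7.90 to 7.995, so the groups overlapped in it. The crypt base and proliferation lists were not tested against each other. The part of the proliferation level in the crypt base values was not tested, since no ECP array overlapped a control array in it.

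**Figure D2:**
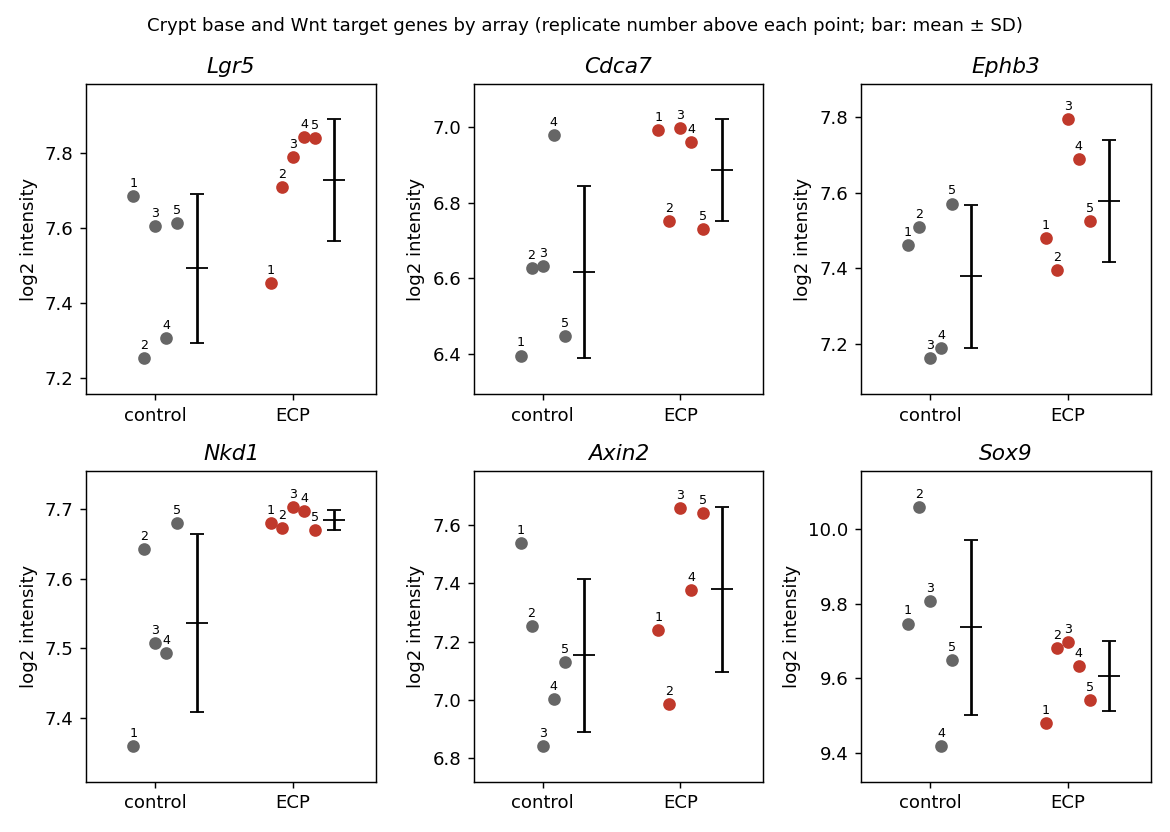
Log2 intensity (vertical axes) of Lgr5, Cdca7, Ephb3, Nkd1, Axin2 and Sox9 in each array, grey points for the 5 control and red points for the 5 ECP arrays with replicate numbers above them, and black bars for mean ± SD. Groups overlap in each of the 6 genes, and Nkd1 shows the narrow ECP range of 7.67 to 7.70 against 7.36 to 7.68 in the controls.

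Reserve stem cell genes, which mark slow-cycling or quiescent crypt cells, lay within 0.12 of 0. Bmi1, a Polycomb protein gene, was at 8.56, 8.49, 8.82, 8.56 and 8.55 in ECP replicates 1 to 5 and at 8.10, 8.58, 8.67, 8.52 and 8.52 in control replicates 1 to 5. Its difference of 0.12 (SE 0.11) was 0.02 without control replicate 1, the lowest array. Lrig1, an inhibitor of EGF receptor signalling, varied little, with 9.77, 9.74, 9.75, 9.81 and 9.67 in the ECP arrays and 9.65, 9.89, 9.85, 9.83 and 9.80 in the controls (difference -0.06, SE 0.06, interval -0.20 to 0.08, and -0.10 without control replicate 1). Hopx, a homeodomain protein gene, was at 7.70 ± 0.19 (SD, n = 5) and 7.70 ± 0.10.

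The R-spondin receptor arm was covered, beside Lgr5, by Lgr4 and Znrf3, whose groups overlapped. Lgr4, an R-spondin receptor gene expressed through the crypt, lay between 11.63 and 11.68 in all 5 ECP arrays and at 11.48, 11.79, 11.69, 11.39 and 11.67 in control replicates 1 to 5. The ECP arrays thus fell inside the control range, with a difference of 0.05 (SE 0.08, interval -0.12 to 0.23) that was 0.0010 without control replicate 4 and 0.10 without control replicate 2. Znrf3, the ubiquitin ligase gene that removes Frizzled receptors, was at 7.46, 7.69, 7.68, 7.99 and 7.60 in the ECP arrays and at 7.47, 7.71, 7.72, 7.67 and 8.02 in the controls (difference -0.04, SE 0.11, interval -0.28 to 0.21). Its sign turned without ECP replicate 1 and without control replicate 5. In each group 1 array stood highest, ECP replicate 4 and control replicate 5.

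Wnt target genes were higher in 3 of 4 members without passing the threshold. Nkd1, a feedback inhibitor of Dishevelled, was at 7.68, 7.67, 7.70, 7.70 and 7.67 in ECP replicates 1 to 5 and at 7.36, 7.64, 7.51, 7.49 and 7.68 in control replicates 1 to 5. The ECP arrays lay at the upper edge of the control range, and control replicate 5 among them. The difference was 0.15 (SE 0.07, interval -0.0039 to 0.30, limma adjusted p = 0.989), and the SD was 0.015 in the ECP and 0.13 in the control arrays.

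Axin2, the scaffold gene of the beta-catenin destruction complex and the most widely used Wnt reporter gene, was at 7.24, 6.98, 7.66, 7.38 and 7.64 in the ECP arrays. In control replicates 1 to 5 it was at 7.54, 7.25, 6.84, 7.002 and 7.13. The groups overlapped over most of their range, with a difference of 0.23 (SE 0.15, interval -0.10 to 0.56, adjusted p = 0.998), or 0.15 without control replicate 3. Notum, which codes for an enzyme that inactivates Wnt ligands, differed by 0.09 (SE 0.10), and 0.02 without ECP replicate 5. Myc, the growth regulator, differed by -0.02 (SE 0.12), with a sign that turned without ECP replicate 2 or 5 and without control replicate 2 or 4.

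Over these 18 crypt and receptor members, 13 were higher and 5 lower, and 95% intervals ran from -0.37 at the lowest bound to 0.56 at the highest. Single intervals were narrower, such as those of Lrig1 and Lgr4 given above. Ascl2 lay below the 25th percentile of mean intensity over all genes, as did Wnt3 and Dkk2, and the other 35 members lay above it.

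Wnt ligand genes were lower in 3 of 4 measured members, with a median difference of -0.11. Wnt4 was at 6.51, 6.60, 6.19, 6.399 and 6.36 in ECP replicates 1 to 5 and at 6.87, 6.67, 6.85, 6.25 and 6.33 in control replicates 1 to 5. Control replicates 1, 2 and 3 lay above every ECP array and the other controls among them, with a difference of -0.18 (SE 0.13, adjusted p = 0.998) that was -0.11 without control replicate 1. Wnt5a, a mesenchymal ligand gene that signals mostly without beta-catenin, was at 7.08, 6.96, 6.93, 7.08 and 7.12 and at 6.67, 7.04, 7.07, 6.95 and 6.98, a difference of 0.09 (SE 0.08) that was 0.03 without control replicate 1.

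Wnt2b, a stromal ligand gene, differed by -0.15 (SE 0.18), and by -0.0068 without control replicate 3, its highest array at 8.39. Wnt3, an epithelial ligand gene in the intestine, differed by -0.07 (SE 0.11), and by -0.0088 without ECP replicate 4.

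R-spondin genes were higher in all 3 members (2 of 3 without ECP replicate 4 or without control replicate 1), with differences of 0.08 to 0.12 that were each about the size of the SE or below it. Rspo1 was at 7.11, 7.26, 7.26, 7.14 and 7.38 in ECP replicates 1 to 5 and at 7.41, 6.95, 6.84, 7.26 and 7.11 in the controls (difference 0.12, SE 0.11). Rspo2 was at 5.62, 5.62, 5.30, 5.75 and 5.45 and at 5.27, 5.55, 5.54, 5.58 and 5.29 (difference 0.10, SE 0.10). In neither gene did a group lie apart, and both differences were 0.05 at the lowest with 1 array left out (control replicate 3 and ECP replicate 4).

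Rspo3, the main stromal R-spondin of the colon, was at 7.39, 7.005, 7.03, 7.46 and 6.59 in ECP replicates 1 to 5. The control replicates were at 5.81, 7.44, 7.35, 7.46 and 7.05. Control replicate 1 lay below all other arrays. The difference was 0.08 (SE 0.29), and it was -0.23 without that array, -0.015 without ECP replicate 4 and -0.053 with array weights.

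Of the secreted Wnt inhibitors, Sfrp1 and Dkk3 were lowest in control replicate 1 and Dkk2 in ECP replicate 2. Sfrp1, which codes for a soluble Frizzled-like decoy, was at 8.62, 8.16, 7.57, 8.42 and 7.70 in the ECP arrays and at 6.72, 8.63, 8.47, 8.55 and 7.60 in control replicates 1 to 5 (difference 0.10, SE 0.35, -0.22 without control replicate 1 and -0.033 without ECP replicate 1). Dkk3, a member of the Dickkopf family, was at 7.79, 7.82, 7.51, 7.75 and 7.43 and at 6.92, 7.93, 8.16, 7.84 and 7.80 (difference -0.07, SE 0.19). Without control replicate 1 the remaining 4 controls lay at the top of the ECP range or above it for Dkk3, and the difference was -0.27. It was 0.038 without control replicate 3. Dkk2, another Dickkopf gene, was at 5.25, 4.97, 4.98, 5.29 and 5.14 and at 5.02, 5.58, 5.18, 5.19 and 5.13, a difference of -0.09 (SE 0.11) that was -0.0014 without control replicate 2.

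The 3 BMP ligand genes were likewise lowest in control replicate 1. Bmp4 was at 8.52, 8.56, 8.25, 8.56 and 8.12 in ECP replicates 1 to 5 and at 7.30, 8.48, 8.62, 8.25 and 8.30 in control replicates 1 to 5, a difference of 0.21 (SE 0.21) that was -0.0093 without control replicate 1. Bmp2 was at 7.25, 7.37, 7.29, 7.17 and 7.21 and at 6.85, 7.60, 7.26, 7.51 and 7.55, a difference of -0.10 (SE 0.13) that was -0.22 without control replicate 1. Control replicates 2, 4 and 5 lay above every ECP array for Bmp2. Bmp5 differed by 0.13 (SE 0.18), with an SD of 0.06 in the ECP and 0.47 in the control arrays, and by -0.04 without control replicate 1.

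BMP antagonist genes ran in opposite directions. Grem1, the antagonist secreted by muscle-associated stromal cells at the crypt base, was at 10.98, 11.00, 10.96, 10.86 and 10.47 in the ECP arrays and at 10.14, 11.05, 10.79, 11.10 and 10.56 in control replicates 1 to 5 (difference 0.13, SE 0.17, -0.02 without control replicate 1). Chrdl1, a chordin-like antagonist gene, was at 7.89, 7.40, 6.97, 7.55 and 6.61 and at 6.27, 7.83, 8.09, 7.77 and 7.84 (difference -0.28, SE 0.33). Control replicate 1 was the lowest array in both genes. Without it, Chrdl1 differed by -0.60 (limma adjusted p = 0.787), and 0 members passed the threshold in that fit.

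**Figure D3:**
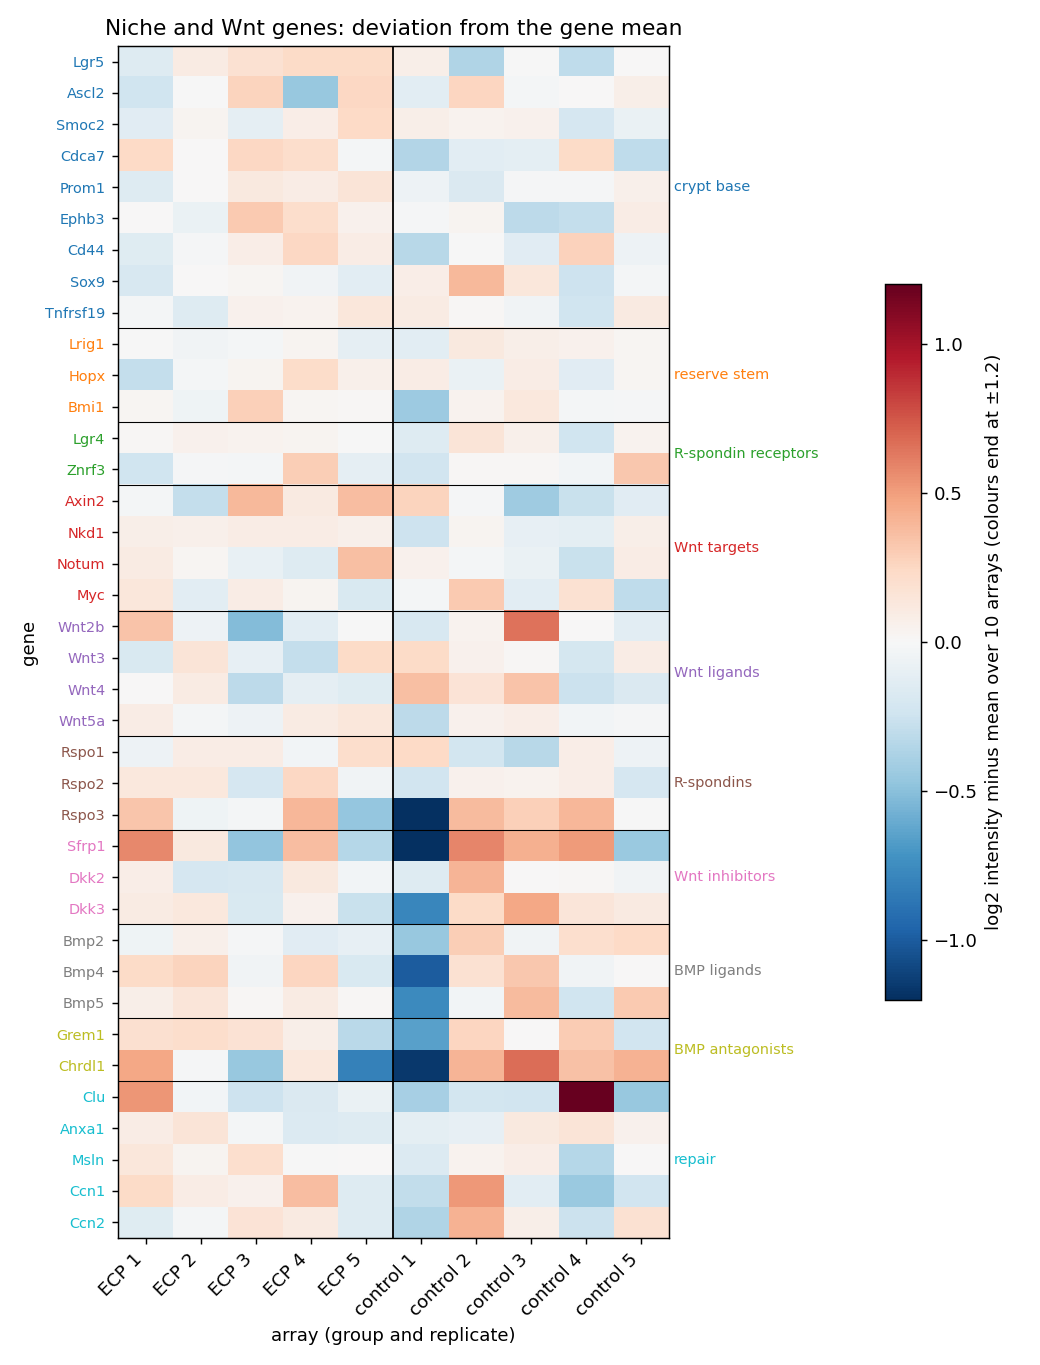
Log2 intensity of each of the 38 genes (rows, grouped by role) minus its mean over the 10 arrays (columns, ECP replicates 1 to 5 on the left and control replicates 1 to 5 on the right), blue for below and red for above the mean. The secreted factors from Rspo3 to Chrdl1 are blue in control replicate 1, Clu is red in control replicate 4, and the crypt genes at the top vary less.

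The 15 secreted members varied more between arrays than the crypt members, and in most of them the SD was larger in the controls. The SD was larger in the controls for 13 of the 15 (86.7%), against 65.8% of all genes. The median SD of the 15 was 0.34 over the control and 0.18 over the ECP arrays, against 0.18 and 0.14 for the 18 crypt and receptor members and 0.16 and 0.13 for all genes. Control replicate 1 was the lowest of the 10 arrays in 10 of the 15 (66.7%), against 18.4% of all genes and 5 of the 18 crypt and receptor members (27.8%). Control replicate 1 minus the mean of the other 4 controls was -1.61 for Chrdl1, -1.59 for Sfrp1, -1.51 for Rspo3 and -1.11 for Bmp4. It was 0.37 for Rspo1 and 0.34 for Wnt4, so these secreted factors were not low there. The SDs include control replicate 1 and were not computed without it. The other controls spanned less than the ECP arrays in Chrdl1 (7.77 to 8.09 against 6.61 to 7.89) and Rspo3 (7.05 to 7.46 against 6.59 to 7.46). They spanned more in Bmp5 (9.03 to 9.65 against 9.28 to 9.41) and Bmp2 (7.26 to 7.60 against 7.17 to 7.37).

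Markers of stromal cells and of macrophages were low in the same array. The mean of 5 measured fibroblast markers (Col1a1, Col3a1, Dcn, Lum and Dpt) was 9.67 in control replicate 1, 10.02 to 10.57 in the other controls and 10.21 to 10.55 in the ECP arrays. Smooth muscle markers were at 9.55, 9.87 to 10.48 and 10.19 to 10.76, and endothelial markers at 6.93, 7.35 to 7.87 and 7.40 to 7.70. Macrophage markers were at 7.28, 7.64 to 8.47 and 7.85 to 8.67, and epithelial markers at 12.01, 11.82 to 12.04 and 11.98 to 12.03. Pancreatic acinar markers were at 11.00 in control replicate 1 and 12.74 in control replicate 4, at 5.56 to 6.79 in the other controls and at 5.43 to 5.66 in the ECP arrays. On this scale no marker is at 0. With the fibroblast level as a covariate the differences were -0.12 for Rspo3, -0.15 for Sfrp1, 0.09 for Bmp4 and 0.02 for Grem1, and with the smooth muscle level -0.30, -0.19, -0.11 and -0.05. With the acinar level they were -0.14 for Rspo3, -0.11 for Sfrp1 and -0.06 for Bmp4. Only control replicate 3 (5.56) lay within the ECP range of the acinar level, so it nearly separates the groups.

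Sfrp1 and Rspo3 followed the fibroblast level over the 10 arrays. For Sfrp1 Pearson's r was 0.963 (permutation p = 0.00011, adjusted p = 0.00418 over 38 members) and Spearman's rho 0.83 (permutation p = 0.00434, adjusted p = 0.0775), and r was 0.92 without control replicates 1 and 5, the 2 arrays farthest from the median fibroblast level. For Rspo3 r was 0.919 (permutation p = 0.00084, adjusted p = 0.016), rho 0.903 (permutation p = 0.00086, adjusted p = 0.0327) and r without those arrays 0.932. Rspo2 had r = 0.823 (permutation p = 0.00158, adjusted p = 0.02), rho = 0.794 (permutation p = 0.00885, adjusted p = 0.0802) and 0.697 without those arrays. Grem1 had r = 0.863 (permutation p = 0.00333, adjusted p = 0.0316) and rho = 0.782 (permutation p = 0.0105, adjusted p = 0.0802), and its r of 0.513 without those arrays rests in large part on them.

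No other member had an adjusted p for r under the threshold. An r of at least 0.823 in size, that of Rspo2, was reached by 5 of the 38 members (13.2%) and by 2.88% of all genes. Bmp4 had r = 0.835 (permutation p = 0.00925, adjusted p = 0.0703), rho = 0.418 (permutation p = 0.233, adjusted p = 0.492) and r = 0.478 without the 2 arrays. Among crypt genes Cdca7 had r = 0.712 (permutation p = 0.0177, adjusted p = 0.0765), rho = 0.503 (permutation p = 0.144, adjusted p = 0.365) and r = 0.164 without the 2 arrays, so its relation rests on them. Lrig1 had r = 0.703 (permutation p = 0.0201, adjusted p = 0.0765), rho = 0.721 (permutation p = 0.0225, adjusted p = 0.127) and r = 0.798 without the 2 arrays. The ligand gene Wnt3 ran the other way, with r = -0.71 (permutation p = 0.0165, adjusted p = 0.0765), rho = -0.818 (permutation p = 0.00612, adjusted p = 0.0775) and r = -0.692 without them. Lgr5 had r = -0.385 (permutation p = 0.275, adjusted p = 0.402), rho = -0.358 (permutation p = 0.314, adjusted p = 0.569) and r = -0.629 without the 2 arrays. Axin2 had r = -0.424 (permutation p = 0.224, adjusted p = 0.351), rho = -0.333 (permutation p = 0.35, adjusted p = 0.602) and r = -0.528 without them. This set of relations was picked with the values already known, and the 10 arrays pool both groups. Relations to the other marker lists, such as the macrophage list, were not tested.

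**Figure D4:**
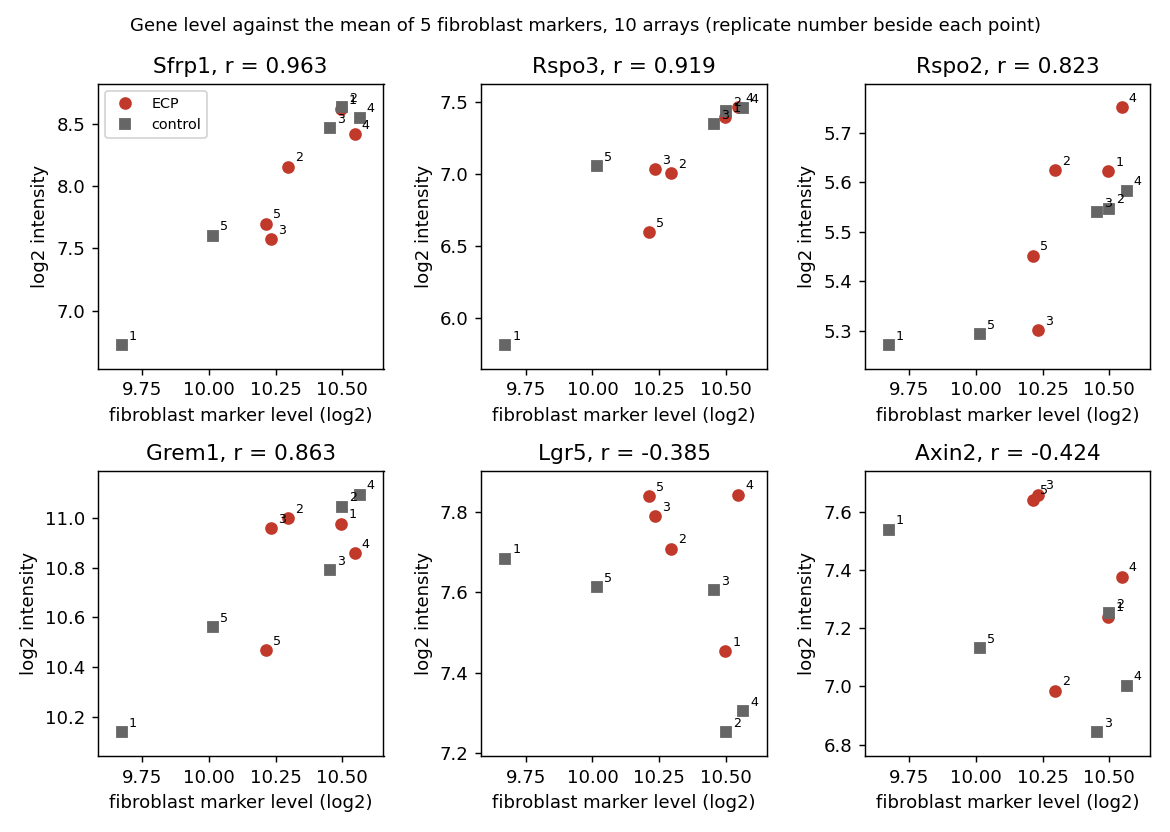
Log2 intensity (vertical axes) of Sfrp1, Rspo3, Rspo2, Grem1, Lgr5 and Axin2 against the mean log2 level of 5 fibroblast markers (horizontal axes) in 5 ECP arrays (red circles) and 5 control arrays (grey squares), with replicate numbers and Pearson's r. Sfrp1 and Rspo3 climb with the fibroblast level (r = 0.963 and 0.919) and Lgr5 and Axin2 have negative coefficients (r = -0.385 and -0.424).

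Fetal-like repair genes were higher in 2 and lower in 3 of 5 measured members, with a median difference of -0.0066. Ccn1, which codes for a matricellular protein induced by YAP and carries the TEAD letters shown above, was at 9.17, 9.03, 8.999, 9.31 and 8.79 in ECP replicates 1 to 5 and at 8.65, 9.47, 8.81, 8.50 and 8.72 in control replicates 1 to 5. Control replicate 2 lay above every ECP array and the other 4 controls, at 8.81 or less, lay below all ECP arrays but replicate 5. The difference was 0.23 (SE 0.16, interval -0.13 to 0.59), 0.39 without control replicate 2 (limma adjusted p = 0.594) and 0.15 without control replicate 4.

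Ccn2, another YAP-induced matricellular gene, had an interval of -0.32 to 0.28, which contains the Ccn1 value, and the pair was not tested against each other. It was at 8.45, 8.57, 8.76, 8.70 and 8.44 in the ECP arrays and at 8.23, 9.01, 8.67, 8.33 and 8.77 in the controls (difference -0.02, SE 0.14), and its sign turned without ECP replicate 1 or 5 and without control replicate 2 or 5. Control replicate 2 was the highest array for Ccn2 as for Ccn1. Msln, the mesothelin gene, was at 5.53, 5.42, 5.59, 5.38 and 5.40 and at 5.23, 5.43, 5.47, 5.05 and 5.39 (difference 0.15, SE 0.09, adjusted p = 0.998, and 0.08 without control replicate 4). Markers of mesothelium, the outer lining in which Msln is normally expressed, had a mean level of 5.84 to 6.10 in the ECP and 5.71 to 5.99 in the control arrays, with 5 of 5 higher in the ECP arrays, and their part in the Msln value was not tested.

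Clu, the clusterin gene, varied most of the repair genes. It was at 10.03, 9.47, 9.25, 9.33 and 9.42 in ECP replicates 1 to 5 and at 9.11, 9.28, 9.28, 10.82 and 9.06 in control replicates 1 to 5. The group means of 9.503 ± 0.31 (SD, n = 5) and 9.51 ± 0.74 differed by -0.0066 (SE 0.30), and by 0.32 without control replicate 4 (limma adjusted p = 0.774). B cell markers were also highest in that array, at a mean level of 8.92 against 6.08 to 6.33 in the other controls, and within the ECP arrays in replicate 1 (7.08, others 5.83 to 6.36), which had the highest Clu value of that group. T cell (6.95), neutrophil (8.82), macrophage (8.47), endothelial (7.87) and acinar (12.74) markers were also highest in control replicate 4 among the controls, and all 5 lists in ECP replicate 1 among the ECP arrays. The lead of ECP replicate 1 was small for the endothelial level (7.697, next 7.693 in replicate 4). Fibroblast (10.57), adipocyte (6.11) and proliferation (8.72) markers were also highest in control replicate 4 among the controls. Among the ECP arrays they were highest in replicates 4, 5 and 4. Clu had r = 0.538 with the fibroblast level (permutation p = 0.107, adjusted p = 0.239) and rho = 0.673 (permutation p = 0.0402, adjusted p = 0.153). The part of these levels other than the acinar and fibroblast ones in the Clu value was not tested. With the acinar level, which nearly separates the groups, as a covariate the Clu difference was 0.43. Anxa1, the annexin gene of the repair program, was at 11.01 ± 0.14 (SD, n = 5) and 11.05 ± 0.12.

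Differences of other genes of these pathways ran from -0.34 to 0.34, against -0.28 to 0.27 for the members. The smallest limma adjusted p was 0.644 for these other genes and 0.939 for the members. Of 104 measured genes outside the list, 53 were higher with ECP and 51 lower (median difference 0.0022). At an unadjusted limma p under 0.05, 1 of the 104 was higher and 2 were lower, against 2.31% and 2.77% of all genes. The threshold was passed by 0 of them. Frizzled, LRP and other Wnt receptor genes were higher in 12 of 16 (9 to 14 with 1 array left out), led by Fzd8 at 0.27 (SE 0.13). Other Wnt ligand genes and the genes for their secretion were lower in 12 of 18 (9 to 14), with Wnt7a at -0.12 (SE 0.07) as the member with the smallest p. Of 11 other Wnt inhibitor genes 5 were higher and 6 lower, and Sfrp4, a Frizzled-like decoy gene, differed by 0.32 (SE 0.13, limma adjusted p = 0.939). The 16 transducer genes from Dishevelled to TCF were higher in 11 (9 to 14), with the tankyrase gene Tnks2 at -0.13 (SE 0.06).

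On the BMP side, the 6 measured target genes were all lower in the ECP arrays, with a median difference of -0.10 and none past the threshold or at an unadjusted p under 0.05, where 46.7% of all genes were lower. Without control replicate 5 the count was 3 of 6. Id1, an inhibitor of helix-loop-helix factors induced by BMP, was at 10.86, 10.85, 10.80, 10.58 and 10.62 in ECP replicates 1 to 5 and at 11.50, 11.12, 10.85, 10.61 and 11.16 in control replicates 1 to 5. Control replicates 1, 2 and 5 lay above every ECP array, with a difference of -0.30 (SE 0.14, adjusted p = 0.989). BMP receptor and SMAD genes were higher in 4 and lower in 5 of 9, with the receptor gene Bmpr1a at 0.19 (SE 0.10), and other ligand and antagonist genes were higher in 5 of 8, with Noggin (Nog) at 0.18 (SE 0.09).

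In the YAP and TEAD list 2 of 9 members were lower at an unadjusted p under 0.05 (2.77% of all genes), Tead2 and Tead4, while the TEAD genes Tead1 and Tead3 were at 0.04 and 0.07. Tead2 was at 6.63 with ECP and 6.97 without (-0.34, SE 0.10, limma adjusted p = 0.644), and Tead4 at 6.08 and 6.42 (-0.34, SE 0.13, limma adjusted p = 0.903). The other 7 members of that list held 6 that were higher (4 higher in the whole list without ECP replicate 3 or without control replicate 4), among them the kinase gene Lats2 at 0.34 (SE 0.19). Lats2 was at 6.58 in control replicate 1, at 7.19 to 7.82 in the other controls and at 7.60 to 7.79 in the ECP arrays. Of 4 other repair genes 2 were higher, with Sprr1a at 0.22 (SE 0.11), and of 7 Notch pathway genes 5 were lower, with the ligand gene Dll4 at -0.12 (SE 0.07).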

How the data were processed

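The deposited table held log2 probe set intensities of 22203 probe sets on 10 single-channel arrays, for which the submitters' processing notes name oligo and RMA as the authors' tools, with versions and options not given in the sources used here. RMA corrects background, quantile-normalises and summarises probes, so shifts common to most genes are removed. Values ran from 2.81 to 13.6 and array medians from 6.94 to 6.98, and array correlations from 0.976 to 0.995. No detection calls were used. Probe sets were named through the platform annotation (19572 named, 2631 not). One probe set per gene, that of highest mean, left 19505 genes, and no member had several. Groups and replicate numbers came from the sample titles. The main test was limma 3.58.1 in R 4.3.3 (two-sided moderated test from lmFit and eBayes without covariates), checked on simulated data, with Benjamini-Hochberg adjustment over all genes. Members, role lists, pathway lists and markers were chosen with earlier results of these data known. Values by array were given for members with an unadjusted p under 0.05, the 2 of smallest p in each role and 8 set genes, of which Ly6a was not measured. Sfrp1 and Clu were added after their values were seen, as were the fibroblast relations (100000 permutations of the 10 arrays). Motif choice, the addition of the GC box after match counts of other motifs had been looked at, and the choice of the 4 promoters also followed the results. Of each pathway list, the genes at an unadjusted p under 0.05, or else the 1 of smallest p, were named; Lats2 was added after its value was seen. The labels do not state whether same-numbered arrays pair. Their deviations from the group means correlated at -0.244 to 0.0761, which does not settle that question.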

Additional observations from a re-analysis of the deposited data

Results flagged for a closer look

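Each member's 5 values per group were searched for a lone extreme array, one whose distance to the next value exceeds 0.71 of the range. There were 10 among 76 such sets, where chance gives about 3.8. Control replicate 1 was low in 5 of them: Chrdl1 (6.27, next 7.77), Rspo3 (5.81, next 7.05), Bmp4 (7.30, next 8.25), Dkk3 (6.92, next 7.80) and Bmi1 (8.10, next 8.52). The genes share arrays and are not independent. Clu was high in control replicate 4 (10.82, next 9.28) and in ECP replicate 1 (10.03, next 9.47). Single arrays apart were ECP replicate 3 in Bmi1 (8.82, next 8.56), ECP replicate 5 in Grem1 (10.47, next 10.86) and control replicate 3 in Wnt2b (8.39, next 7.77).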

How the results depend on the processing

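Under 25 alternatives 0 of the members tested passed the threshold, and the smallest adjusted p of a member was 0.23, for Cdca7 with the epithelial level as a covariate. The count over all genes went from 0 to 1 without the lowest quartile by mean level and with the trend and robust options of eBayes, and to 7 without genes below the median level, and it lay between 0 and 1 when 1 array was left out. The replicate block gave 0 genes and 0 members past the threshold, with Cdca7 at 0.27 and Lgr5 at 0.23. In that fit 1 member, not Lgr5, was at an unadjusted p under 0.05, beside 403 higher and 483 lower of 19505 genes. For 20 of the 38 members, Lgr5, Cdca7, Ephb3, Axin2 and Nkd1 among them, the sign held under every alternative in which they were tested. For the other 18 it turned under at least 1, and the cause was not tested. With median centring Hopx was at -0.0016 and with renewed quantile normalisation at -0.0062. Array weights gave -0.0070 for Tnfrsf19, -0.0089 for Lgr4, -0.053 for Rspo3, -0.068 for Sfrp1, -0.012 for Bmp5 and 0.13 for Clu. Without control replicates 1 and 4 the values were -0.019 for Tnfrsf19, -0.010 for Hopx, -0.059 for Lgr4, 0.028 for Myc, -0.18 for Rspo3, -0.14 for Sfrp1, -0.063 for Bmp4, -0.15 for Bmp5 and 0.30 for Clu. Without control replicates 1, 4 and 5, chosen after seeing the data, they were -0.027 for Smoc2, -0.0037 for Hopx, -0.029 for Bmi1, -0.082 for Lgr4, -0.019 for Wnt5a, -0.29 for Rspo3, -0.46 for Sfrp1, -0.15 for Bmp4, -0.11 for Bmp5, -0.066 for Grem1, 0.22 for Clu and -0.081 for Ccn1. The smooth muscle level as a covariate gave -0.0088 for Hopx, -0.041 for Bmi1, -0.043 for Lgr4, -0.30 for Rspo3, -0.19 for Sfrp1, -0.11 for Bmp4, -0.17 for Bmp5, -0.054 for Grem1 and 0.19 for Clu. The epithelial level gave -0.035 for Tnfrsf19, -0.036 for Hopx, 0.044 for Myc and 0.32 for Clu. The acinar level gave -0.012 for Smoc2, -0.038 for Tnfrsf19, -0.029 for Hopx, -0.083 for Lgr4, 0.030 for Myc, -0.14 for Rspo3, -0.11 for Sfrp1, -0.059 for Bmp4, -0.16 for Bmp5 and 0.43 for Clu. The fibroblast level, chosen after seeing the data, gave -0.12 for Rspo3 and -0.15 for Sfrp1. Leaving out 1 array gave ranges of -0.15 to 0.030 for Ascl2, -0.011 to 0.082 for Smoc2, -0.036 to 0.061 for Tnfrsf19, -0.052 to 0.077 for Hopx, -0.11 to 0.040 for Znrf3, -0.098 to 0.057 for Myc, -0.23 to 0.20 for Rspo3, -0.22 to 0.26 for Sfrp1, -0.27 to 0.038 for Dkk3, -0.0093 to 0.32 for Bmp4, -0.039 to 0.25 for Bmp5, -0.020 to 0.22 for Grem1, -0.14 to 0.32 for Clu and -0.11 to 0.083 for Ccn2. A proliferation level covariate was tried and left out because it separates the groups. The acinar level was kept as a covariate although only control replicate 3 lay within its ECP range. The number of arrays limits the precision, and dim members such as Wnt3 have no detection call here.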
